A study of Homo sapiens with 8 samples.

Results

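Caspases are proteases that carry out apoptosis. Initiator caspases are switched on in large complexes: CASP8 and CASP10 by death receptors through the adaptor FADD, CASP9 in the apoptosome after mitochondria release cytochrome c, and CASP2 in the PIDDosome. CFLAR (also called c-FLIP) resembles CASP8 but lacks protease activity and controls CASP8 at the receptor complex, RIPK1 is a kinase of tumour necrosis factor signalling that leads to survival, apoptosis or necroptosis, and CASP6 is an executioner caspase. CASP8, CASP10 and CFLAR carry paired death effector domains and lie side by side in the human genome, and mice have no CASP10 gene.

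These 8 genes were taken by name from a series on newly made RNA. A value was listed for 7 of them, out of 8801 genes with a value in the series. CASP9 had no listed ratio and is not described further. The members were selected on their log2 ratios with siScram and siPCF11, which were already known, so these ratios are a description and carry no test.

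The cells were HEK293T, a human embryonic kidney line, either wild-type (WT) or Pcif1-KO, a line without PCIF1, the methyltransferase that makes m6Am, a modified adenosine at the first position of capped mRNAs. Either genotype had been transfected with 5 pmol of a scrambled siRNA (siScram) or with the same amount of siPCF11, which targets PCF11, a subunit of the 3′ end cleavage machinery that helps RNA polymerase II to terminate, and was harvested after 48 h. The series names s4U labelling of nascent RNA, and libraries were made from 3′ ends of nuclear mRNA. The 4 groups used, WT with siScram, WT with siPCF11, Pcif1-KO with siScram and Pcif1-KO with siPCF11, had 1 library each, the labels name no further knockout clone, and the depth behind each value is unknown.

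Each value is the authors' log2 ratio of WT over Pcif1-KO within 1 siRNA, so that a negative value is lower in WT cells. Ratios were listed for 7893 genes with siScram, 8499 with siPCF11 and 7591 with both. The authors had also put each gene in a long or short class and in an m6Am or non-m6Am class. Over all genes with both ratios, the pooled SD between the ratios with the 2 siRNAs was 0.28, and this is the only measure of spread that these values give. The tables carry no expression levels, so the cell type could not be checked against its markers, and fewer transcripts per cell cannot be told apart from fewer cells that make them. A 3′ end read also depends on where a transcript is cleaved.

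By the authors' classes, CASP2 and FADD were m6Am genes and CASP6, CASP8, CASP10, CFLAR and RIPK1 were non-m6Am genes. m6Am forms where the first transcribed base is an adenosine, so the annotated first bases are shown here for the m6Am members FADD and CASP2 and for CASP8 and CFLAR, the non-m6Am genes on either side of CASP10. Each line gives 30 bases of the RefSeq GRCh38.p14 sequence, 15 before the annotated start and 15 from it on, on the plus strand, with the first transcribed base in capitals.
FADD, chr11:70203281-70203310: aacggtcgaaaacgcGctcttgtcgatttc
CASP2 start 1, chr7:143288336-143288365: ggcgcaggcgcaggcGcagtgtgcgtccgc
CASP2 start 2, chr7:143289573-143289602: gctgtcatggaaaccAgaggaagagaacga
CASP8 start 1, chr2:201233448-201233477: ctgagtttttggtttCtgtttcaccttgtg
CASP8 start 2, chr2:201258020-201258049: atttcttgttcgagtGagtcatctctgttc
CASP8 start 3, chr2:201260521-201260550: cttccgtccttcattAgacgtttgctcttg
CFLAR start 1, chr2:201118701-201118730: agcggttcagcaggcAgaggttctcggacg
CFLAR start 2, chr2:201128950-201128979: tcctctgtaacttccAgatgttccactgag
CFLAR start 3, chr2:201132766-201132795: ctctgagttgttttcAgaaactgttagttg
CFLAR start 4, chr2:201140260-201140289: gaaagatggtgattgAccttggactgaacc

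At the starts available here, the first base did not follow the authors' m6Am class in these genes. FADD, an m6Am gene, has a G at its single listed start, and CASP2, the other m6Am gene, has an A at 1 of 2 starts. CFLAR, a non-m6Am gene, has an A at 4 of 4 listed starts, CASP8 and RIPK1 at 1 of 3 each, and CASP6 at 0 of 1. These starts are not a full list. The RefSeq span of CFLAR begins at 201116164, upstream of its first listed start at 201118716. On the minus strand, the span of CASP6 begins at 109709767, upstream of its only listed start at 109703445. The first bases at those outer ends were not examined. Over all genes that matched a RefSeq start, an A stood at 49.2% of 5175 starts of m6Am genes and at 41.7% of 5490 starts of non-m6Am genes. Which of these starts HEK293T cells use was not measured here.

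Among the initiator caspases of the death receptors, CASP10 stood far below its neighbours. CASP10 (ENSG00000003400.14, hg38 chromosome 2, 201183141 to 201229406) had ratios of -0.86 with siScram and -1.69 with siPCF11 per the authors' deposited tables, or levels 1.82-fold and 3.23-fold higher in Pcif1-KO cells. With siScram it ranked 98 from the lowest of 7893 genes, and with siPCF11 it ranked 9 of 8499. Within the long non-m6Am class it ranked 29 of 2503 and 2 of 3016. Both ratios of CASP10 therefore lay in the low tail of all genes, and its mean over both siRNAs was -1.28 (SE 0.20 from the pooled SD, n = 2 ratios). This SE takes no account of the distance between the 2 CASP10 ratios. They differed by a change of -0.83 with siPCF11, and 96.1% of genes moved by less. The mean carries no test.

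CASP8 (ENSG00000064012.21, hg38 chromosome 2, 201233463 to 201287711), the other death receptor caspase, was listed with siPCF11 and not with siScram, at -0.11 in the authors' deposited table. This lies within the spread of 0.28 around 0, and 38.3% of genes had a lower ratio. A missing siScram value was most frequent in its class: 612 long non-m6Am genes (20.3% of those listed with siPCF11) had a ratio with siPCF11 only, against 7.82% of short non-m6Am, 7.08% of long m6Am and 2.17% of short m6Am genes.

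CFLAR (ENSG00000003402.19, hg38 chromosome 2, 201116164 to 201176687), the protease-dead relative, was the only member with a deposited ratio above 0, at 0.19 with siScram, and was at -0.02 with siPCF11 per the authors' deposited tables. Both values lie within the spread around 0, and the second was above 0 after chromosome and window centring, at 0.027 and 0.069. As deposited they were at ranks 5744 of 7893 and 4150 of 8499 from the lowest.

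**Figure D1:**
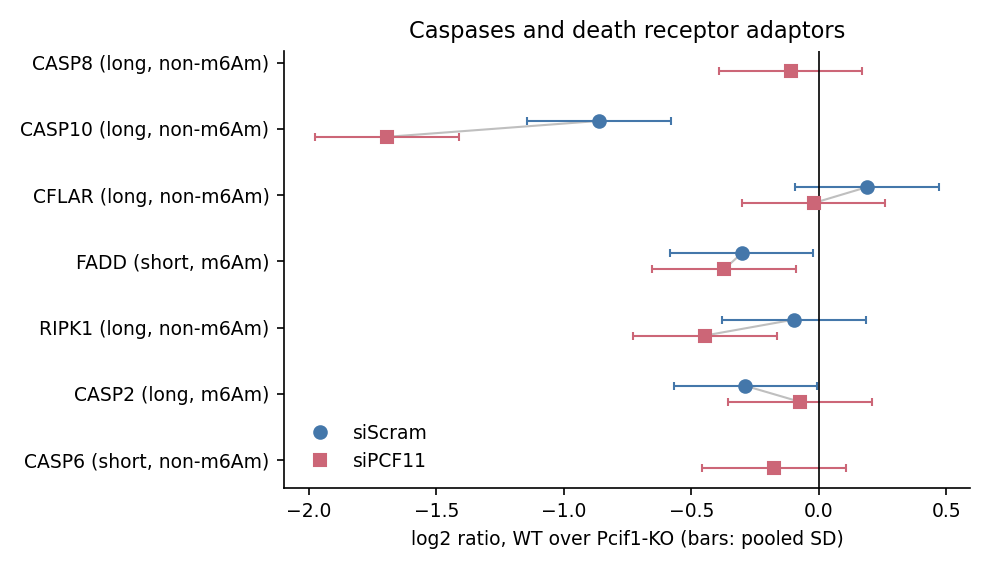
Log2 ratio of WT over Pcif1-KO (horizontal axis) for the 7 genes with a value, with siScram (circles) and siPCF11 (squares), 1 ratio each. Bars show the pooled SD of 0.28 between the 2 siRNAs over all genes; CASP10 at -0.86 and -1.69 lies apart from the other genes, which range from -0.45 to 0.19.

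The CASP10 ratio lay below those of both genes that flank it. By RefSeq, CFLAR ends 6.45 kb before CASP10 starts and CASP8 starts 4.06 kb after CASP10 ends. CASP10 minus CFLAR was -1.05 with siScram and -1.67 with siPCF11 on the log2 scale, a ratio 2.07-fold and 3.19-fold lower than that of CFLAR. CASP10 minus CASP8 was -1.58 with siPCF11, or 2.99-fold lower, while CASP8 minus CFLAR was -0.09. The 3 genes share length class, m6Am class and position, and the low ratio was found in CASP10 alone of them. With 1 library per group these differences have no replicate check.

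The wider neighbourhood did not share the low CASP10 ratio either. The tables list 15 other genes whose RefSeq span lies within 1 Mb of the CASP10 start, among them SPATS2L, BZW1, CLK1, PPIL3, NIF3L1, ORC2, HYCC2, NDUFB3, CFLAR, CASP8, TRAK2, STRADB, TMEM237 and FZD7. With siScram 11 of them had a ratio, from -0.27 for SPATS2L to 0.42 for PPIL3 per the authors' deposited tables, and 2 were below 0. With siPCF11 all 15 had one, from -0.36 for TRAK2 to 0.61 for STRADB per the authors' deposited tables, and 9 were below 0. Over all genes listed, 51.1% were below 0 with each siRNA. The median gene of this neighbourhood was CFLAR itself with both siRNAs. CASP10 was 0.59 below the lowest neighbour with siScram and 1.33 below it with siPCF11.

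**Figure D2:**
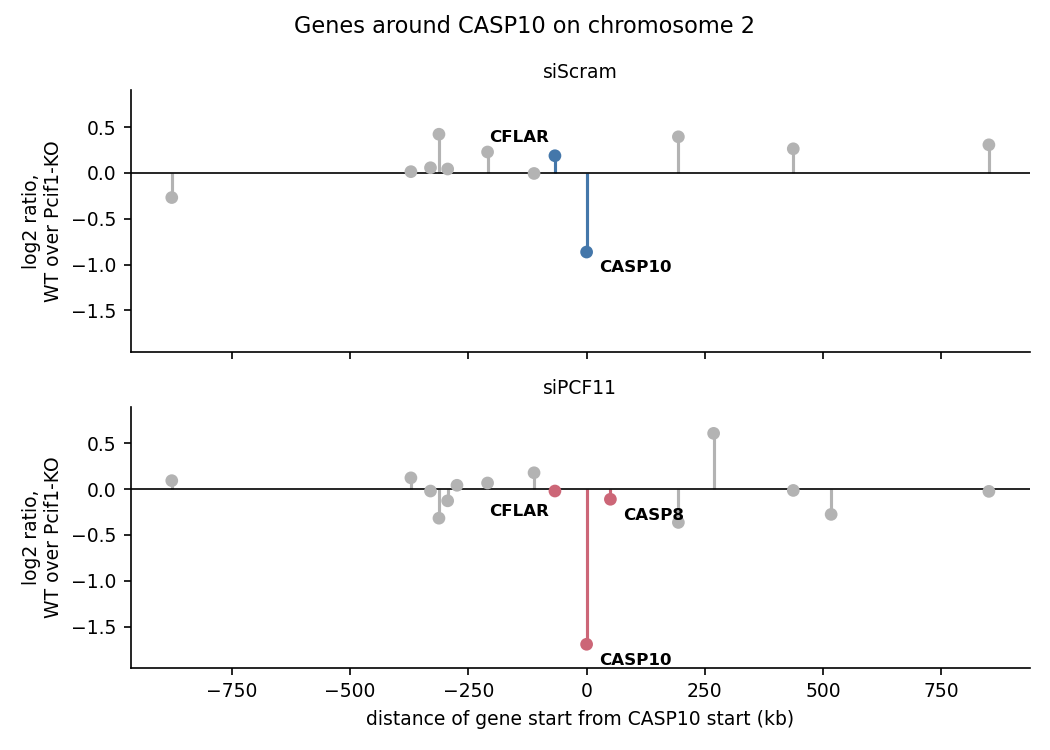
Log2 ratio of WT over Pcif1-KO (vertical axis) of the genes within 1 Mb of CASP10 against the distance of their start from the CASP10 start in kb, with siScram (top, 11 neighbours) and siPCF11 (bottom, 15 neighbours). Coloured points are CASP10, CASP8 and CFLAR, grey points the other genes; CASP10 is lowest in both panels, at -0.86 and -1.69.

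The gap between CASP10 and the other genes was wider with siPCF11. Its ratio moved by -0.83 between the siRNAs, rank 128 from the lowest of 7591 genes, and 96.1% of genes moved by a smaller amount in either direction. Whether this differs from chance cannot be tested with 1 library per group. The other 4 members with both ratios moved by less: RIPK1 by -0.35, CFLAR by -0.21, FADD by -0.07 and CASP2 by 0.21. Of the 7591 genes, 62.3% moved by a smaller amount than RIPK1.

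**Figure D3:**
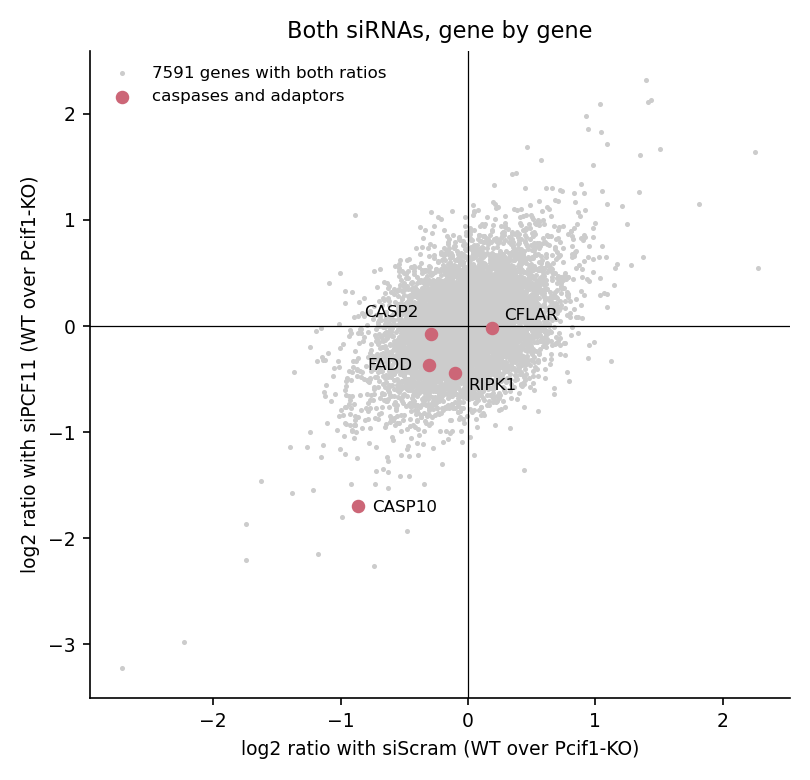
Log2 ratio of WT over Pcif1-KO with siPCF11 (vertical axis) against that with siScram (horizontal axis) for the 7591 genes with both (grey) and the 5 caspases and adaptors among them (coloured). CASP10 lies at the lower left edge of the cloud at -0.86 and -1.69, and the other 4 lie inside it.

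The receptor adaptor FADD (ENSG00000168040.4, hg38 chromosome 11, 70203296 to 70207390), which joins death receptors to CASP8 and CASP10, was at -0.30 with siScram and -0.37 with siPCF11 per the authors' deposited tables. At 4.09 kb it has the shortest RefSeq span of the members. Its chromosome as a whole was lower in WT cells, with medians of -0.29 and -0.27, and FADD was at -0.01 and -0.10 relative to them. Relative to the other genes of its 10 Mb window it was at -0.0018 with siScram and -0.11 with siPCF11. With siScram FADD was therefore level with its chromosome region, and with siPCF11 it was within the spread of 0.28 around it.

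RIPK1 (ENSG00000137275.13, hg38 chromosome 6, 3063967 to 3115187) was at -0.10 with siScram and -0.45 with siPCF11 per the authors' deposited tables. The siPCF11 value was the lowest of the members after CASP10, with 11.2% of genes below it. Relative to the other genes of its window RIPK1 was at -0.02 and -0.31, so the first value lies within the spread of 0.28 around 0 and the second just past it.

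CASP2 (ENSG00000106144.19, hg38 chromosome 7, 143288351 to 143307696), the PIDDosome caspase, was at -0.29 with siScram and -0.07 with siPCF11 per the authors' deposited tables. It was at -0.07 and 0.04 relative to the other genes of its window, both within the spread around 0. The authors placed CASP2 among long genes with a RefSeq span of 19.3 kb, and 3.87% of 5243 long genes had a span that short or shorter.

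CASP6 (ENSG00000138794.9, hg38 chromosome 4, 109664388 to 109709767), the executioner caspase, was listed with siPCF11 only, at -0.17 in the authors' deposited table. It was at -0.09 relative to its window. CASP6 belonged to the authors' short class although its RefSeq span is 45.4 kb, and 6.03% of 3482 short genes had a span that long or longer.

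Taking the members by count, 4 of 5 were below 0 with siScram and 7 of 7 with siPCF11, where 51.1% of all genes listed were below 0 with each siRNA. Most of these values were small: only CASP10 lay below -0.5, 1 of 5 members with siScram and 1 of 7 with siPCF11, against 6.98% and 8.70% of all genes. Below -0.3 were 2 of 5 and 3 of 7, against 18.7% and 20.8% of all genes, and below -1 were 0 of 5 and 1 of 7, against 0.519% and 0.659%. No member was above 0.5, where 6.11% and 8.81% of all genes were. The member medians were -0.29 and -0.17, or -0.19 and -0.14 without CASP10, beside -0.0096 and -0.010 over all genes. They were -0.10 and -0.098 after centring on the chromosome and -0.020 and -0.089 after centring on the window. As the values were known when the members were chosen, nothing is read from these counts.

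The 3 genes whose pair of ratios was nearest to that of CASP10, by Euclidean distance over the 2 siRNAs among 7591 genes, were BARX2, PCDH9 and EPN1. The homeobox gene BARX2 on chromosome 11 was at -0.99 and -1.80 per the authors' deposited tables, at a distance of 0.16 from CASP10. The protocadherin PCDH9 on chromosome 13 was at -0.92 and -1.49 (distance 0.21) and the endocytic adaptor EPN1 on chromosome 19 at -0.73 and -1.49 (distance 0.24), per the authors' deposited tables. All 3 are in the authors' long class, and BARX2 and EPN1 are non-m6Am genes like CASP10. Of the 8801 genes with a value, 3115 were long non-m6Am genes and 2164 long m6Am genes. BARX2 and CASP10 had the lowest and second lowest siPCF11 ratios of that class.

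The other genes of cell death were described from 8 lists of 90 genes, of which 58 had a ratio. The genes of these lists lay on both sides of 0. With siScram 24 of 52 were below 0, with a median of 0.03, and with siPCF11 26 of 55, with a median of 0.06. Over all genes listed, 51.1% were below 0 with each siRNA. With siScram 3 genes were above 0.5 (5.77%, against 6.11% of all genes) and 4 below -0.5 (7.69%, against 6.98%). With siPCF11 9 were above 0.5 (16.4%, against 8.81%) and 5 below -0.5 (9.09%, against 8.70%). After chromosome and window centring the siPCF11 counts were 7 and 8 above 0.5, and 4 and 6 below -0.5. The shares of all genes were not recomputed for these.

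A limma fit to the 2 ratios of each gene, with a two-sided test of a mean of 0, could be used for 49 of these genes. At an adjusted p under 0.05 (Benjamini and Hochberg over 7591 genes) 3 of the 49 were higher in WT and 0 lower, beside 2.67% and 2.82% of all genes. At an unadjusted p under 0.05, limma put 7 higher and 3 lower, beside 8.79% and 8.91% of all 7591 genes (17.7% in either direction). The 3 genes called were PMAIP1, BBC3 and TAB1. BBC3 and TAB1 were chosen for naming after their values were seen, and PMAIP1 by a rule on these same ratios. The lists were chosen with earlier results of these data known, so the counts describe the lists and are no test of them. The fit took the siScram and siPCF11 ratios as repeats of the same genotype difference. This holds only for genes whose genotype difference is the same with both siRNAs, which was not tested. As deposited and after chromosome centring, the fit used 1 pooled SD of 0.28 for every gene. The SE of each mean is then 0.20 whatever the distance between a gene's own 2 ratios. After window centring the fit gave 4418 distinct SDs over 7532 genes, so calls under window centring rest on another estimate of spread as well. The p-values of the fit do not measure the spread between libraries of the same group, and other clones are outside them.

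PMAIP1 (NOXA), a BH3-only protein that neutralises MCL1, was at 0.98 with siScram and 0.64 with siPCF11 per the authors' deposited tables. Its mean was 0.81 (pooled SE 0.20, or 0.17 from its own 2 ratios, limma adjusted p 0.0027), above 0 in 2 of 2 ratios. It was the only gene of the 8 lists past 0.5 in the same direction with both siRNAs. BBC3 (PUMA), a further BH3-only protein and like PMAIP1 a p53 target, was at 0.20 and 1.17 per the authors' deposited tables, with a mean of 0.68 (pooled SE 0.20, limma adjusted p 0.017). The 2 BBC3 ratios alone give an SE of 0.48, and 98.5% of genes moved by less between the siRNAs, so its call rests on the pooled SD and mainly on the siPCF11 ratio. TAB1, a partner of the kinase TAK1 downstream of RIPK1, was at 0.32 and 0.91 per the authors' deposited tables, with a mean of 0.62 (pooled SE 0.20, or 0.30 from its own 2 ratios, limma adjusted p 0.041). PMAIP1 held its call after chromosome and window centring, whereas TAB1 lost it under both (adjusted p 0.095 and 0.28) and BBC3 under window centring (0.076).

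Death receptors had 4 listed members of 11. The TRAIL receptor TNFRSF10B was highest with siScram, at 0.41, and at -0.05 with siPCF11 per the authors' deposited tables. The decoy receptor TNFRSF10D was lowest, at -0.34, and at 0.13 with siPCF11 per the authors' deposited tables. Both receptors had ratios on opposite sides of 0 with the 2 siRNAs, and none of the 4 was called by limma (0 at an unadjusted p under 0.05, where 17.7% of all genes were). Over all 8 lists, 29 of 49 genes with both ratios had them on the same side. Genes named as highest or lowest of a list were picked on siScram ratios, so nothing is read from their side with siPCF11.

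Among adaptors the FADD-binding FAF1 was at 0.26 and -0.79 and the death effector domain protein DEDD at -0.51 and 0.15 per the authors' deposited tables. Among regulators of RIPK1 the kinase CHUK (IKK alpha) was at 0.67 and -0.64, and TAX1BP1, an adaptor of the deubiquitinase TNFAIP3, at -0.60 and -0.48 per the authors' deposited tables. FAF1, DEDD and CHUK had ratios on opposite sides of 0, where 29 of 49 list genes had both on the same side. TAX1BP1 was below 0 with both, but its mean missed the threshold (limma adjusted p 0.088). Of the mitochondrial factors 3 of 4 were below 0 with each siRNA, against 51.1% of all genes. With siPCF11 2 of 4 were below -0.5, against 8.70% of all genes. HTRA2, a protease that relieves caspases of their inhibitors, was at 0.08 and 0.17 and the flavoprotein AIFM1 at -0.29 and -0.58 per the authors' deposited tables. CYCS, the cytochrome c that starts the apoptosome, was at -0.24 and -0.77 per the authors' deposited tables and was chosen after its values were seen. AIFM1 and CYCS were the 2 genes of this list, of 4 tested, with an unadjusted limma p under 0.05. Both were lower, as were 8.91% of all genes at that p, and both missed the threshold (limma adjusted p 0.21 and 0.12). After chromosome and window centring the unadjusted limma p of AIFM1 was 0.104 and 0.103, and that of CYCS 0.021 and 0.0045.

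In the BCL2 family 9 of 14 genes were above 0 with siScram and 8 of 12 with siPCF11, where 51.1% of all genes were below 0 with each. The BH3-only gene BAD on chromosome 11 was its lowest at -1.09 with siScram, but was at 0.41 with siPCF11 per the authors' deposited tables. Of the inhibitors of apoptosis, the ubiquitin ligase BIRC6 was at 0.16 and -0.05 and BIRC5 (survivin) at -0.54 and 0.02 per the authors' deposited tables. In this list 3 of 4 listed members were below 0 with each siRNA, beside 51.1% of all genes. Of caspase substrates, the lamin gene LMNB1 was at 0.66 and 0.28 and LMNA at -0.31 and -0.43 per the authors' deposited tables. No gene of these 2 lists was called by limma, where 0 of 4 and 2 of 7 tested had an unadjusted p under 0.05, beside 17.7% of all genes.

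**Figure D4:**
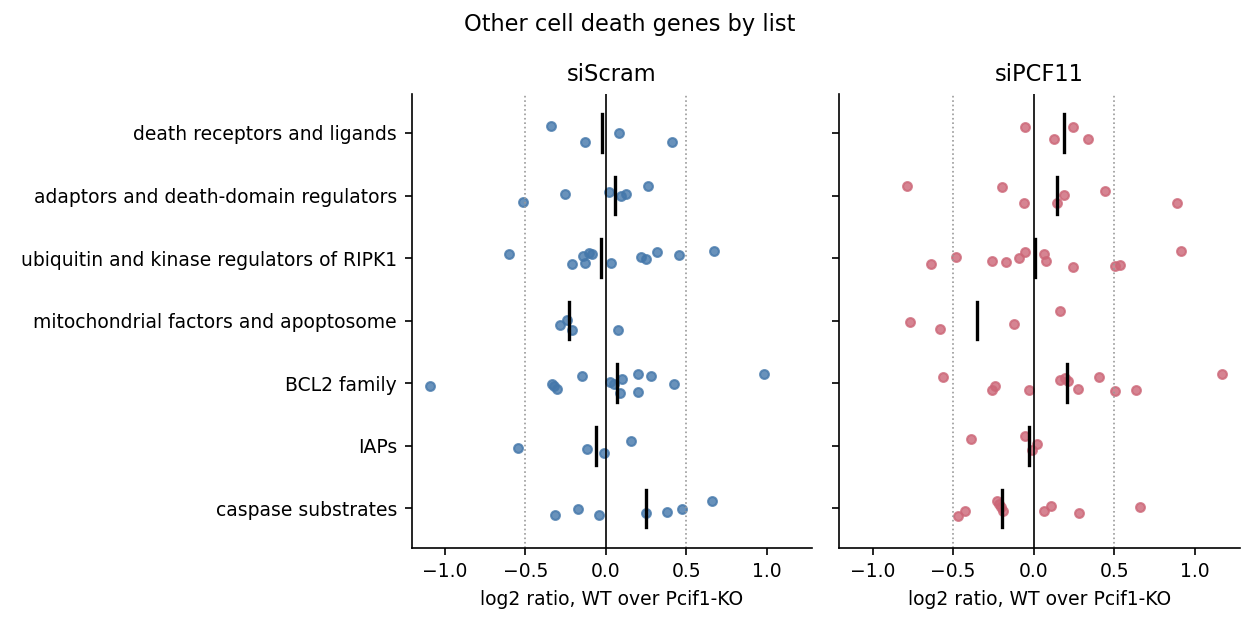
Log2 ratio of WT over Pcif1-KO (horizontal axes) with siScram (left) and siPCF11 (right) for the listed genes of 7 of the cell death lists, 1 point per gene, with small random vertical offsets. Black bars mark list medians and dotted lines -0.5 and 0.5; most points lie between the dotted lines, and the BCL2 family reaches from -1.09 to 0.98 with siScram.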

How the data were processed

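The authors deposited 2 tables of log2 ratios of WT over Pcif1-KO, for long and short genes, each divided by m6Am class and siRNA into 8 columns in all. The log2 scale and direction are those of the deposited tables' titles. For tools, DESeq2 1.30.1, HTSeq 2.0.1, STAR 2.7.10a, cutadapt 3.7 and bcl2fastq 2.20 are listed without roles, with the build hg38, per the submitters' processing notes. How ratios were scaled or shrunk, genes selected and classes assigned is not stated there. No counts or levels were used, so depth is unknown.

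Of 8 libraries in 7 groups, taken from sample titles, 4 stand behind the ratios; the other 4, from Pcif1-KO cells overexpressing EGFP, PCIF1-CD or PCIF1-WT, were not used. Of 8801 gene IDs, version removed, 8792 had a symbol and 8725 a RefSeq span. limma 3.58.1 (R 4.3.3) was fitted to the 2 ratios of 7591 genes as deposited and gave 1 SD for all. For 7532 genes it also gave 1 SD for all after chromosome centring, but 4418 distinct SDs after window centring. Windows were 10 Mb and needed 15 genes, otherwise the chromosome was used. RefSeq starts matched 6 of the 7 members, all but CASP10. The scripts were tested on simulated data.

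The members and lists were chosen with earlier results of these data known. The text names all members, the genes within 1 Mb of CASP10, the highest and lowest siScram gene of each list, any list gene past 0.5 in 1 direction with both siRNAs, and the 3 genes nearest to CASP10, apart from some genes that are not reported here. BBC3, TAB1 and CYCS were added after their values were seen. Alternatives were centring on all genes, the chromosome or the window, other comparators for CASP10, and thresholds of 0.3 and 1, or an adjusted p of 0.1.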

Additional observations from a re-analysis of the deposited data

Results flagged for a closer look

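CFLAR was the 1 member whose log2 ratios lay on opposite sides of 0 as deposited. Per the authors' deposited tables it was at 0.19 with siScram and at -0.020 with siPCF11. After chromosome and window centring its siPCF11 ratio was 0.027 and 0.069, above 0 like its siScram ratio, and after window centring CASP2 was the member on opposite sides, at -0.07 and 0.04. The difference between the siRNAs was not tested, and each value lies within the SD of 0.28 around 0.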

How the results depend on the processing

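CASP10 stayed between -0.93 and -0.85 with siScram and between -1.69 and -1.64 with siPCF11 under the 3 centrings. CASP10 minus CFLAR with siScram became -0.67 when the median of the other members replaced CFLAR. At a log2 threshold of 0.3, 2 members with siScram and 3 with siPCF11 were below -0.3, beside 18.7% and 20.8% of all genes, and at a threshold of 1, 0 members with siScram were below -1, beside 0.519% of all genes. FADD with siScram moved from -0.30 to -0.01 and -0.0018 under chromosome and window centring. Window centring left 2 list genes below -0.5 with siScram in place of 4. limma called 203 genes higher and 214 lower in WT, 305 higher at an adjusted p of 0.1, and 115 higher and 126 lower after window centring. Of 49 list genes it called 3 as deposited, 2 after chromosome and 1 after window centring. The member medians moved towards 0, from -0.29 and -0.17 to -0.020 and -0.089 after window centring. With these medians included, 59 recomputed values that answer a comparison moved by less than the SD, or, for counts, by no more than 1.5 times. Some of the 59 had little or no room to move. Centring on all genes subtracts medians of only -0.0096 and -0.010, and the median gene of the CASP10 neighbourhood is CFLAR itself. No pairing beyond that within each ratio was possible because no replicate numbers link the groups. The pairing of WT with Pcif1-KO within 1 siRNA is already in each ratio and is what limma used, and with 1 library per group no replicate could be left out.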
